A study of Mus musculus with 20 samples.

Results

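The 9 genes described here, Lum, Dcn, Bgn, Fmod, Ogn, Prelp, Omd, Aspn and Chad, encode small leucine-rich proteoglycans. They were taken by gene symbol, not by value, from a table of 54532 genes, and all 9 were above the minimum for testing. Earlier results of these data were known when the family was chosen. Expression was measured by RNA-seq in articular chondrocytes of 6-week-old mice, the cells that make and keep the cartilage of joints. Cells were exposed for 48 hours to the solvent DMSO alone (Vehicle), to 25-hydroxycholesterol (25HC) at 20 µM, to 25-hydroxycholesterol-3-sulfate (25HC3S), also at 20 µM, or to GW3965 at 2 µM, and each of the 4 groups held 5 libraries, 20 in all. 25HC is an oxysterol that cells make from cholesterol, 25HC3S is 25HC with a sulfate group added, and GW3965 is a synthetic, non-steroidal agonist of the liver X receptors. The labels name no strain, sex or genotype nor whether replicates are separate mice or dishes. A p-value below thus reflects only how far replicate libraries scatter, and that scatter may be technical.

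Small leucine-rich proteoglycans are secreted proteins with a curved core of leucine-rich repeats that binds collagen. In cartilage they coat collagen fibrils, limit how thick the fibrils grow, link them to other matrix molecules, and hold or present growth factors such as TGF-β. Decorin (Dcn) and biglycan (Bgn) carry chondroitin or dermatan sulfate chains, and asporin (Aspn), their nearest relative, usually carries none. Fibromodulin (Fmod), lumican (Lum), osteomodulin (Omd, also called osteoadherin) and Prelp form another class, several of which carry keratan sulfate. Osteoglycin (Ogn, also called mimecan) and chondroadherin (Chad) belong to further classes, and chondroadherin is known to bind cells through an integrin.

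Several of these genes are neighbours in the mouse genome. On chromosome 13, Aspn (ENSMUSG00000021388, chr13:49544443-49567565), Omd (ENSMUSG00000048368, chr13:49582462-49592822) and Ogn (ENSMUSG00000021390, chr13:49608046-49624501) follow each other on the plus strand. Gaps of 14.9 kb and 15.2 kb separate them, and a further leucine-rich repeat gene, Ecm2, lies 11.7 kb before Aspn. On chromosome 10, Dcn (ENSMUSG00000019929, chr10:97479609-97518143) lies 47.0 kb before Lum (ENSMUSG00000036446, chr10:97565128-97572703), both on the plus strand. On chromosome 1, Prelp (ENSMUSG00000041577, chr1:133910304-133921414, minus strand) and Fmod (ENSMUSG00000041559, chr1:134037254-134048277, plus strand) are 115.8 kb apart and point away from each other. No protein-coding gene lies wholly within any of these gaps. Cenpp, on the opposite strand, runs across those between Aspn, Omd and Ogn. Bgn (ENSMUSG00000031375, chrX:73483602-73495933) and Chad (ENSMUSG00000039084, chr11:94565047-94569127) stand alone. These positions are those of the deposited table, and they are the same as in GENCODE release M21 on build GRCm38 for all 9 genes.

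The sequences before the transcription start are shown for 5 genes, because in 3 libraries described below the 3 genes of chromosome 13 were all high while Bgn and Fmod were low. Each line holds the 250 bases before the start in RefSeq (GRCm38.p6), 5′ to 3′ on the strand of the gene. The RefSeq start of Ogn lies 31 bases before the start in the deposited table, and that of Bgn 1 base before it. Capitals mark matches, on either strand, to the TATA box core TATAAA, the nuclear receptor half-site AGGTCA, the CCAAT box core CCAAT, the GC box core GGGCGG and the E-box CANNTG.
Aspn, chr13:49544193-49544442, + strand: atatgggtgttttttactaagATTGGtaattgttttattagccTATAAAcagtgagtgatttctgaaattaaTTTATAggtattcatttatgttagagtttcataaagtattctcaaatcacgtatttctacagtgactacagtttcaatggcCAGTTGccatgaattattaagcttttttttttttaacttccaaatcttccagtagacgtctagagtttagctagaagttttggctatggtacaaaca
Omd, chr13:49582212-49582461, + strand: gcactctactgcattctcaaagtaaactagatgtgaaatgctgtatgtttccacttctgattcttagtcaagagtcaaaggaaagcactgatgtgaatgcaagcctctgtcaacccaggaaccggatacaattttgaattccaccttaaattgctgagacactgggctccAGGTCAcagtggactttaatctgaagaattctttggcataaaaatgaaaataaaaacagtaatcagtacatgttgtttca
Ogn, chr13:49607765-49608014, + strand: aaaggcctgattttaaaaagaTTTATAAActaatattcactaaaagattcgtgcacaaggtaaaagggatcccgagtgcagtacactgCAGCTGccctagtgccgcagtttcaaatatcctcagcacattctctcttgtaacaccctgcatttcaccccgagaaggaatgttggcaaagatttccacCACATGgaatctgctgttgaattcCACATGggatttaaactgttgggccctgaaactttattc
Bgn, chrX:73483351-73483600, + strand: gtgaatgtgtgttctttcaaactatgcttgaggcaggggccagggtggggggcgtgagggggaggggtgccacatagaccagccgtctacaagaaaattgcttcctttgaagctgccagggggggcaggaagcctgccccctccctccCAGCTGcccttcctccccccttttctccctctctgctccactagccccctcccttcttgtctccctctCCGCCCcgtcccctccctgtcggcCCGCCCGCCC
Fmod, chr1:134037004-134037253, + strand: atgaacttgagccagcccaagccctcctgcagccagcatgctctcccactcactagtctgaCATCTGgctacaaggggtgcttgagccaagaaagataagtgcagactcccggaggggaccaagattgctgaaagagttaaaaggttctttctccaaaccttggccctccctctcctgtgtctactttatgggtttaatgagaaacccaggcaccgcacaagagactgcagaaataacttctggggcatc
The chromosome 13 windows were poor in G and C, at 30.0% for Aspn, 38.4% for Omd and 42.0% for Ogn, against 64.4% for Bgn and 51.2% for Fmod. The windows of Prelp and Chad, not shown, had 55.6% and 60.4%. Any part of this content in the levels was not tested. TATAAA was found for Aspn, Ogn and Chad, 3 of the 7 members with an entry, and in 12.4% of all 32851 windows of this length. In Chad it began 28 bases before the start. In Aspn and Ogn its nearest match began 178 and 227 bases before the start. AGGTCA, the repeated unit of the element that liver X receptors bind, was found in the window of Omd, 80 bases before the start, and in 14.0% of all windows. The whole direct repeat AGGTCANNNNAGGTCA was in none of the 7 windows and in 5 of the 32851. The AP-1 core TGANTCA was in none of the 7 and in 6.75% of all windows. CCAAT was in 2 of the 7 (33.8% of all), GGGCGG in 2 (32.7%) and CANNTG in 5 (66.2%). In Ogn and Bgn, matches to 1 motif overlap each other. A match is only a run of letters.

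The deposited unit is FPKM, the fragments counted on a gene divided by its length in kilobases and by the depth of the library as the authors took it. The libraries held 14653777 to 19365220 fragments in genes, and each member had 278 to 68684 fragments per library, so that counting error was at most 6.00% of a value. This covers counting only. Chondrocyte markers were abundant, with all 12 on the list at 1 FPKM or more in at least 1 library and a summed level of 1661 to 5053 FPKM per library. By the same measure macrophage markers were also present, 12 of 12, at 385 to 1049 FPKM, as were 11 of 12 markers of fibroblasts and dedifferentiated chondrocytes, at 9535 to 13443 FPKM. Synovial lining and tendon markers, 6 of 8, were at 166 to 315 FPKM, and osteoblast and osteocyte markers, 6 of 9, at 109 to 181 FPKM. Markers of endothelium stayed at or under 6.53 FPKM in sum, those of skeletal muscle 11.2 and those of adipocytes 28.4. In bulk RNA, fewer cells of a type and less RNA per cell cannot be told apart.

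4 libraries stood apart: Vehicle replicates 2, 3 and 4, and 25HC3S replicate 1. They had 237 to 1171 genes with exactly 1 fragment, against 1808 to 2057 in the other 16. In 3 of the 4, genes poor in G and C were shifted up against genes rich in them. The median log2 difference from the remaining libraries of the group was taken over the 1274 genes of lowest GC content (up to 41.2%) and the 1275 of highest (from 57.8%). The first median minus the second was 1.25 in Vehicle replicate 3, 1.17 in Vehicle replicate 4 and 0.75 in 25HC3S replicate 1. It was 0.19 in Vehicle replicate 2 and -0.094 to 0.155 in the other 16. Mitochondrial genes took 4.07%, 3.60% and 3.14% of the fragments in Vehicle replicates 3 and 4 and 25HC3S replicate 1, 0.369% in Vehicle replicate 2, and 0.889% to 1.41% in the other 16. The 4 had 16346 to 19648 genes with any fragment, against 20847 to 21607. For the main differences below, values without these 4 libraries are given as well. Without them, Vehicle holds 2 libraries and 25HC3S 4, and the fit shares its spread with the other groups.

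**Figure D1:**
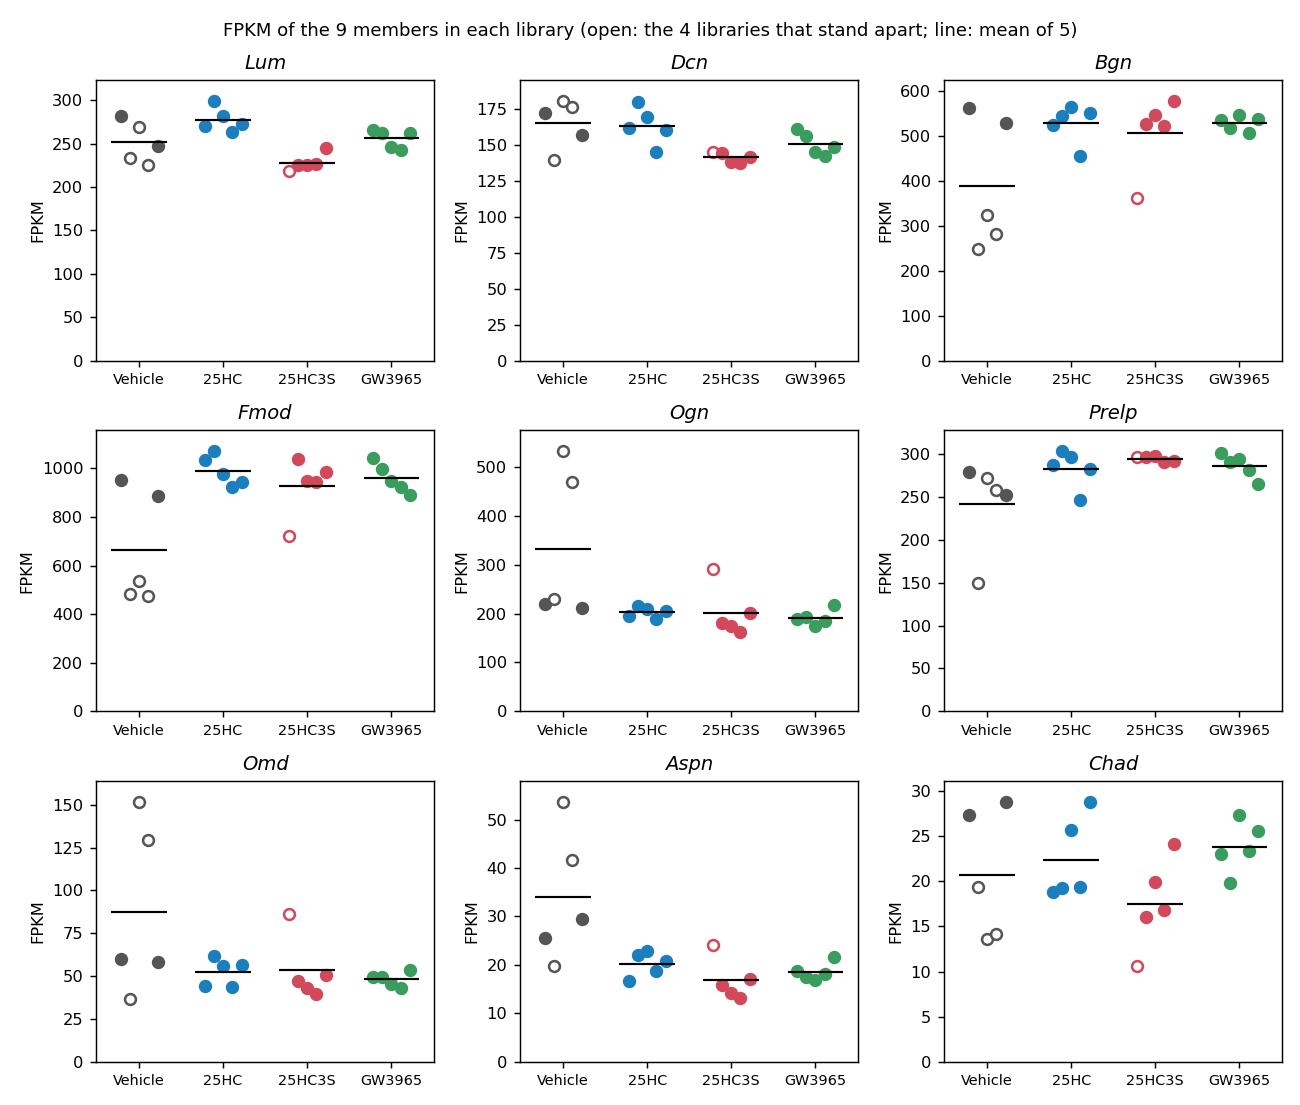
FPKM of each gene (vertical axis, from 0) in the 5 libraries of each group (horizontal axis). Open circles are the 4 libraries that stand apart and horizontal lines are group means. For Bgn, Fmod, Ogn and Omd the wide spread of Vehicle comes with its open circles, while Lum and Dcn are spread much less.

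Fibromodulin and biglycan had the highest levels of the family, and asporin and chondroadherin the lowest. Over the 20 libraries, mean FPKM per table gene length was 886 ± 183 for Fmod, 488 ± 99.5 for Bgn, 277 ± 34.4 for Prelp, 253 ± 23.0 for Lum, 232 ± 96.4 for Ogn, 155 ± 14.5 for Dcn, 60.2 ± 29.7 for Omd, 22.4 ± 9.66 for Aspn and 21.1 ± 5.28 for Chad (SD, n = 20). The table divides Dcn by 5838 bases and Bgn by 6099 bases, 3.32 and 2.52 times the length of their principal transcripts. Divided by transcript length, an order computed after the data were seen, Bgn stood highest at 1229, followed by Fmod at 938 and Dcn at 516. The other 6 kept their order below these. In the order of the table, the intervals of mean ± SD overlapped between neighbours from Prelp through Lum and Ogn to Dcn, and from Omd through Aspn to Chad. They did not overlap between Fmod and Bgn, Bgn and Prelp, or Dcn and Omd. The summed FPKM of the 9 genes was 2189 ± 397 (SD, n = 5) in Vehicle, 2539 ± 150 (SD, n = 5) in 25HC, 2388 ± 147 (SD, n = 5) in 25HC3S and 2465 ± 84.5 (SD, n = 5) in GW3965. The groups overlapped in this sum. Outside the 4 libraries that stand apart, the sum was 2580 and 2400 in Vehicle replicates 1 and 5, and it was 2306 to 2717 over all 16.

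Within that sum, the make-up was steady in 16 libraries and different in 4. Fmod made up 36.8% to 41.7% and Bgn 19.7% to 22.8% of the sum in the 16. In the 4 libraries that stand apart, Fmod made up 22.9% to 33.4% and Bgn 13.6% to 16.8%. The share of Ogn, Omd and Aspn together went the other way, with 9.18% to 12.4% in the 16 and 18.4% to 31.6% in the 4. A share also rises where other genes fall. In Vehicle replicate 2 Omd and Aspn were themselves lower, at log2 differences of -0.69 and -0.45 from the Vehicle libraries outside the 4.

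**Figure D2:**
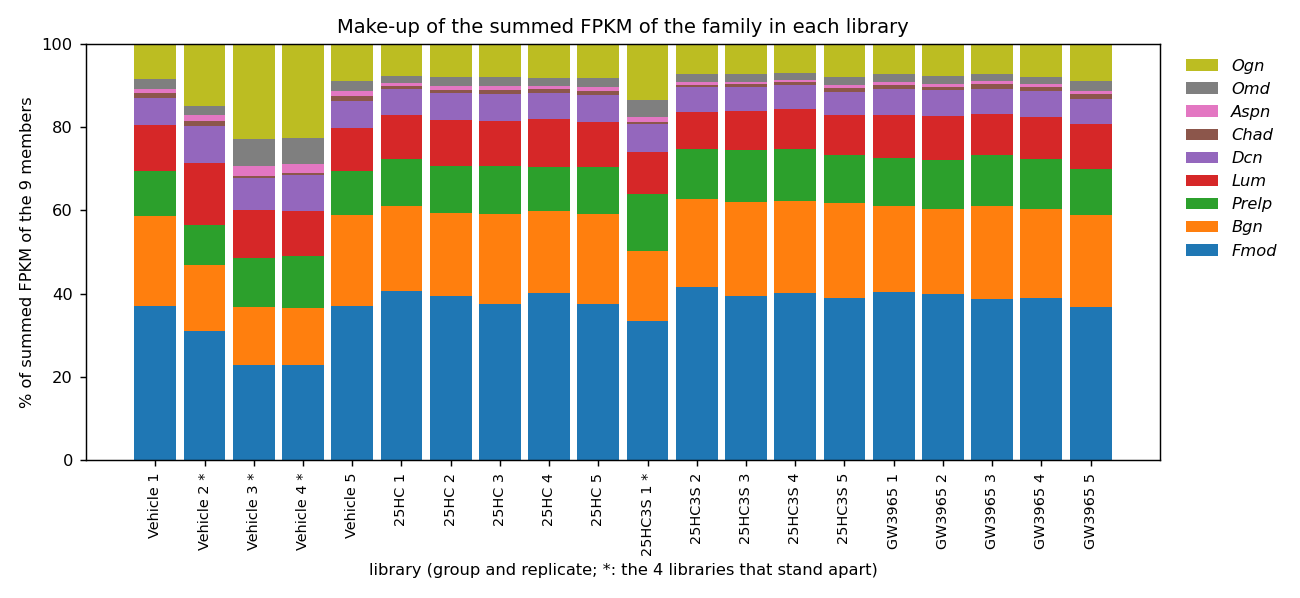
Share of each gene in the summed FPKM of the 9 (vertical axis, percent), 1 bar per library (horizontal axis). An asterisk marks the 4 libraries that stand apart. In these, Ogn takes 13.5% to 22.8% against 6.94% to 9.00% elsewhere.

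In 3 of those 4 libraries, the position of most of the 9 genes went with their base composition. The transcripts of Aspn, Omd and Ogn hold 34.3%, 36.1% and 36.3% G and C, those of Lum and Dcn 41.9% and 42.4%, and those of Bgn, Fmod, Prelp and Chad 52.5%, 53.7%, 53.8% and 56.7%. In Vehicle replicate 3, Ogn was 1.30, Omd 1.34 and Aspn 0.95 above the mean of the Vehicle libraries outside the 4, in log2(FPKM + 1). In the same library Bgn was at -0.75, Fmod at -0.78 and Chad at -0.99. Vehicle replicate 4 and 25HC3S replicate 1 had the same signs for these 6 genes. Prelp, with the base composition of Fmod, was within 0.05 of the other libraries in these 3. Vehicle replicate 2 had another pattern, with 8 of the 9 genes lower, Bgn by the most at -1.14, and Ogn at 0.10. Lum and Dcn stayed between -0.24 and 0.14 in all 4.

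**Figure D3:**
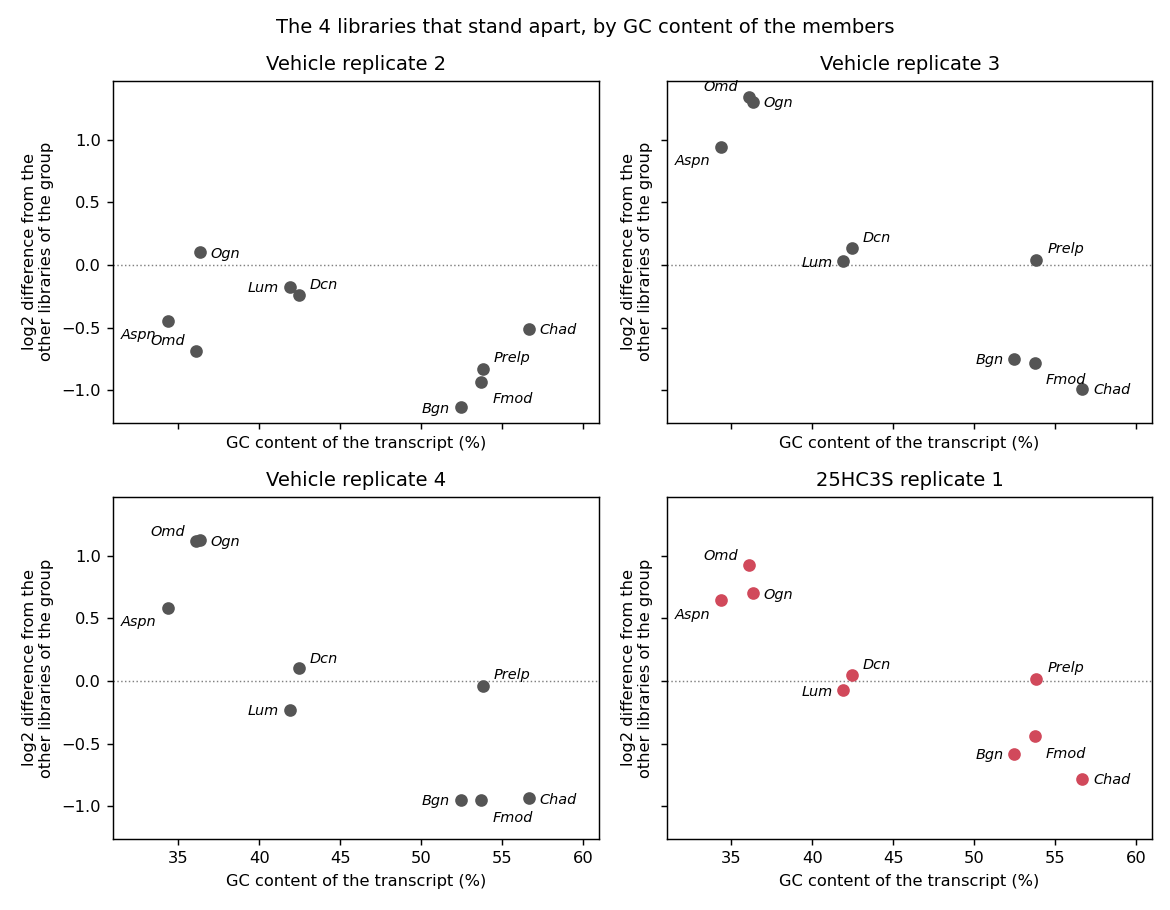
Log2 difference of each gene in 1 of the 4 libraries from the mean of the libraries of its group outside the 4 (vertical axis) against the percent of G and C in its transcript (horizontal axis). In 3 panels Aspn, Omd and Ogn, the genes of lowest GC content, lie above 0 and Bgn, Fmod and Chad lie below it. Vehicle replicate 2 has Aspn and Omd below 0.

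Aspn had a lower mean with each compound than with Vehicle, and the difference passed the test with 25HC3S and with GW3965. Asporin binds collagen and TGF-β, and in cartilage it is known as an inhibitor of TGF-β signalling. Its FPKM by replicate 1 to 5 was 25.5, 19.8, 53.7, 41.6 and 29.5 in Vehicle, and 16.8, 22.0, 22.9, 18.7 and 20.8 in 25HC. It was 24.0, 15.9, 14.3, 13.2 and 17.0 in 25HC3S, and 18.7, 17.5, 16.8, 18.1 and 21.7 in GW3965. Vehicle replicates 3 and 4 were the highest of all 20, and Vehicle replicate 2 lay inside the range of every treated group, so that the groups overlapped. The means were 34.0 ± 13.6 in Vehicle, 20.2 ± 2.49 in 25HC, 16.9 ± 4.26 in 25HC3S and 18.6 ± 1.89 in GW3965 (SD, n = 5 each).

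Differences were tested with limma on log2(FPKM + 1), over all 12752 genes with at least 1 FPKM in at least 5 libraries, and called at a Benjamini-Hochberg adjusted p under 0.05. On that scale Aspn was 0.91 lower in 25HC3S than in Vehicle (log2 difference -0.91 ± 0.20 SE, adjusted p = 0.0251) and 0.76 lower in GW3965 (-0.76 ± 0.20 SE, adjusted p = 0.0308). With 25HC the difference was -0.64 ± 0.20 and did not pass (adjusted p = 0.147). In the fit of the other 16 libraries Aspn remained called, at -0.82 ± 0.12 with 25HC3S (adjusted p = 0.00124) and -0.54 ± 0.12 with GW3965 (adjusted p = 0.00806), while 25HC stayed uncalled at -0.43 ± 0.12 (adjusted p = 0.470). With the trend on GC content taken out of each library, all 20 included, the differences were -0.71 (adjusted p = 0.00197) and -0.44 (adjusted p = 0.0286). Both calls ended where only the groups compared were fitted (adjusted p = 0.443 and 0.180) and where all genes above 0 FPKM were tested (0.0519 and 0.0672). The 25HC3S call ended without Vehicle replicate 3 or 4 or 25HC3S replicate 2, 3, 4 or 5 (adjusted p 0.0508 to 0.0751), and the GW3965 call without Vehicle replicate 3 or 4 or GW3965 replicate 1, 2, 3 or 4 (adjusted p 0.0654 to 0.0864). With 25HC, Aspn was called lower without Vehicle replicate 1 or 5 (adjusted p 0.0365 to 0.0468), where 20.9% and 16.4% of all genes were called. The differences with 25HC3S and GW3965 kept their sign in each of the fits without 1 library, between -1.08 and -0.73 for 25HC3S and between -0.92 and -0.58 for GW3965. Beside this, 3 of 12 macrophage markers were called lower and 1 higher in 25HC3S than in Vehicle (7 and 1 without the 4 libraries), and 2 lower and 0 higher with GW3965 (1 and 0). No chondrocyte marker of 12 was called by limma in either comparison with all libraries (0 and 5 at an unadjusted p under 0.05, where 17.1% and 31.9% of all genes were). Without the 4 libraries, 2 chondrocyte markers were called lower with 25HC3S, and 2 higher and 1 lower with GW3965. Of 11 tested markers of fibroblasts and dedifferentiated chondrocytes, 1 was called lower with 25HC3S, Postn at -0.46, and 0 with GW3965. Without the 4 libraries 3 were lower with 25HC3S, Postn at -0.52, and 1 with GW3965. Of all genes, 1.61% were called with 25HC3S and 6.46% with GW3965, and without the 4 libraries 3.95% and 7.77%. The part of these markers in the result was not tested.

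Between the compounds, Aspn did not differ past the threshold when all libraries were used. It was -0.27 ± 0.20 in 25HC3S against 25HC (95% interval -0.69 to 0.15, adjusted p = 0.834). With the 4 libraries left out, among them 25HC3S replicate 1, Aspn was lower with the sulfate than with 25HC at the same dose (-0.40 ± 0.09, adjusted p = 0.0161) and lower than with GW3965, whose dose was 2 µM against 20 µM (0.28 ± 0.09 for GW3965 minus 25HC3S, adjusted p = 0.0474). 25HC3S replicate 1, at 24.0 FPKM, lay above all 5 libraries of 25HC, and the other 4 of its group lay at 13.2 to 17.0.

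Ecm2 and Epyc, relatives outside the 9, were called lower in the same comparisons as Aspn. Ecm2, the gene next to Aspn, had 3.52 ± 0.512 FPKM in Vehicle, 2.88 ± 0.299 in 25HC, 2.26 ± 0.148 in 25HC3S and 2.40 ± 0.483 in GW3965 (SD, n = 5 each). It was called lower with 25HC3S (-0.47 ± 0.10, adjusted p = 0.0179) and with GW3965 (-0.42 ± 0.10, adjusted p = 0.0144), and also without the 4 libraries (-0.48, adjusted p = 0.0267, and -0.41, adjusted p = 0.0328). Epyc, epiphycan, known from growth plate cartilage and a neighbour of Lum beyond Kera, was called lower with 25HC3S (-0.51 ± 0.12, adjusted p = 0.0418) and GW3965 (-0.56 ± 0.12, adjusted p = 0.00904), and with neither without the 4 libraries (-0.27, adjusted p = 0.270, and -0.31, adjusted p = 0.159). Of 9 such relatives, 6 could be tested. Kera, Optc and Nyx stayed under 0.34 FPKM.

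Omd and Ogn, on the other side of Aspn, had lower means with every compound than in Vehicle, with no call. Osteomodulin is known from mineralised matrix and osteoglycin as a regulator of fibril thickness. Omd ran from 36.4 to 152 FPKM in Vehicle (87.2 ± 50.3), from 43.6 to 61.7 in 25HC (52.3 ± 8.03), from 39.4 to 86.2 in 25HC3S (53.4 ± 18.8) and from 43.0 to 53.4 in GW3965 (48.1 ± 3.99). Ogn ran from 211 to 533 in Vehicle (333 ± 156), from 189 to 216 in 25HC (203 ± 10.7), from 163 to 292 in 25HC3S (202 ± 51.9) and from 174 to 218 in GW3965 (192 ± 16.3). Groups overlapped for both genes. The largest differences from Vehicle were those of GW3965, -0.65 ± 0.29 for Omd (adjusted p = 0.138) and -0.67 ± 0.22 for Ogn (adjusted p = 0.0687). In the other 16 libraries these were -0.30 ± 0.12 (adjusted p = 0.192) and -0.17 ± 0.08 (adjusted p = 0.262). Both then lay lowest with 25HC3S, at -0.39 ± 0.13 for Omd (adjusted p = 0.110) and -0.26 ± 0.08 for Ogn (adjusted p = 0.0925), again uncalled. In fits without single libraries, Ogn was called lower with GW3965 without Vehicle replicate 1, 2 or 5 (adjusted p 0.0212 to 0.0464) and lower with 25HC without Vehicle replicate 1 or 5 (0.0407 to 0.0426). Omd was called lower with GW3965 without Vehicle replicate 2 (adjusted p = 0.0390). Without Vehicle replicate 1, 2 or 5, 25.5%, 8.31% and 23.5% of all genes were called with GW3965, against 6.46% with all libraries. With 25HC, 20.9% and 16.4% were called without Vehicle replicate 1 and 5, against 0.0392% with all libraries.

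Lum was lower in each of the 5 libraries with 25HC3S than in any of the 5 with 25HC. Lumican is the keratan sulfate proteoglycan best known for spacing fibrils in the cornea, and it is also made in cartilage. Its FPKM by replicate was 271, 299, 282, 263 and 272 in 25HC, and 219, 225, 225, 226 and 245 in 25HC3S. It was 281, 233, 269, 225 and 247 in Vehicle and 265, 262, 246, 243 and 263 in GW3965. The ranges of 25HC and 25HC3S did not overlap, while Vehicle overlapped both and the GW3965 mean lay between theirs. The means were 277 ± 14.1 in 25HC, 256 ± 10.6 in GW3965, 251 ± 23.8 in Vehicle and 228 ± 9.85 in 25HC3S (SD, n = 5 each).

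Against 25HC, Lum was -0.28 ± 0.07 with 25HC3S in log2(FPKM + 1) (adjusted p = 0.0493), and without the 4 libraries -0.27 ± 0.05 (adjusted p = 0.00218). The call with all libraries was at the edge of the threshold: it ended whichever of the 10 libraries of 25HC or 25HC3S was left out (adjusted p 0.0570 to 0.147), and with the GC trend removed (-0.36, adjusted p = 0.113). The remaining neighbours in the order of means did not differ past the threshold: GW3965 against 25HC -0.12 ± 0.07 (adjusted p = 0.891), GW3965 against Vehicle 0.03 ± 0.07 (adjusted p = 0.752) and 25HC3S against Vehicle -0.14 ± 0.07 (adjusted p = 0.298). Lum was also called higher with 25HC than with Vehicle in the fit without Vehicle replicate 1 (adjusted p = 0.0461), where 20.9% of all genes were called. It was called higher with GW3965 than with 25HC3S without the 4 libraries (0.15 ± 0.05, adjusted p = 0.0330), where 17.9% were. Beside this result, the summed fibroblast markers were 9535 to 10602 FPKM in 25HC3S and 10623 to 11380 in 25HC, and the summed macrophage markers 385 to 731 and 709 to 1003. The summed chondrocyte markers were 2362 to 3692 and 3670 to 4031. Osteoblast and osteocyte markers summed to 144 to 162 and 169 to 181, and adipocyte markers to 9.61 to 16.8 and 21.5 to 28.4. The sums for macrophages, chondrocytes, synovial lining and tendon, endothelium and skeletal muscle overlapped between the groups. The part of all these markers in the result was not tested.

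Dcn, the neighbour of Lum, also had its lowest mean with 25HC3S. Decorin binds collagen and TGF-β and is among the most abundant proteoglycans of connective tissue. It had 173, 140, 181, 177 and 157 FPKM in Vehicle and 162, 180, 170, 145 and 161 in 25HC. It had 145, 144, 139, 138 and 142 in 25HC3S and 162, 156, 146, 143 and 149 in GW3965. The 25HC3S libraries lay close together and low, and 25HC overlapped them only at its lowest library, replicate 4. Vehicle replicate 2 lay inside the range of 25HC3S, and the other 4 Vehicle libraries lay above it. Against 25HC, Dcn was -0.20 ± 0.07 with 25HC3S (adjusted p = 0.380), and without the 4 libraries it was called lower (-0.21 ± 0.05, adjusted p = 0.0219). Against Vehicle it was -0.22 ± 0.07 (adjusted p = 0.156), and without the 4 libraries -0.23 ± 0.07 (adjusted p = 0.0822). Of the fits without 1 library, it was called lower in the one without Vehicle replicate 2 (adjusted p = 0.0249), where 2.29% of all genes were called.

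Fmod was higher with GW3965 than with Vehicle over all libraries, and not where the 4 that stand apart were left out. Fibromodulin, a keratan sulfate proteoglycan of cartilage and tendon, binds collagen and takes part in its cross-linking. Its FPKM by replicate was 952, 481, 534, 475 and 887 in Vehicle, and 1036, 1071, 975, 925 and 942 in 25HC. It was 721, 1037, 948, 944 and 984 in 25HC3S, and 1043, 996, 949, 921 and 892 in GW3965. The low values were Vehicle replicates 2, 3 and 4 and 25HC3S replicate 1, and Vehicle replicates 1 and 5 lay among or just under the treated libraries. The difference was 0.59 ± 0.17 with GW3965 (adjusted p = 0.0390), 0.64 ± 0.17 with 25HC (adjusted p = 0.147) and 0.53 ± 0.17 with 25HC3S (adjusted p = 0.128). In the other 16 libraries the GW3965 difference was 0.06 ± 0.07 (adjusted p = 0.688), and with the GC trend removed it was 0.44 (adjusted p = 0.0460). The call also ended without Vehicle replicate 2, 3 or 4 or any 1 library of GW3965 (adjusted p 0.0598 to 0.110). Where Vehicle replicate 1 or 5 was left out, Fmod was called higher with 25HC (adjusted p 0.0301 to 0.0410), and with 25HC3S where these or 25HC3S replicate 1 were left out (0.0178 to 0.0499). The share of all genes called with 25HC3S was then 4.88% without Vehicle replicate 1, 3.34% without Vehicle replicate 5 and 3.4% without 25HC3S replicate 1. With 25HC it was 20.9% without Vehicle replicate 1 and 16.4% without Vehicle replicate 5.

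Bgn followed Fmod, with no call. Biglycan is a matrix proteoglycan that, once released, also binds toll-like receptors. It had 562, 248, 324, 282 and 529 FPKM in Vehicle, against 455 to 563 in 25HC, 361 to 578 in 25HC3S and 506 to 546 in GW3965. Vehicle replicates 2, 3 and 4 were the lowest of the 20 libraries. Differences from Vehicle were 0.51 ± 0.18 with 25HC (adjusted p = 0.147), 0.44 ± 0.18 with 25HC3S (adjusted p = 0.236) and 0.52 ± 0.18 with GW3965 (adjusted p = 0.0831). Outside the 4 libraries they were -0.05 ± 0.07, -0.0087 ± 0.07 and -0.05 ± 0.07. Leaving out Vehicle replicate 1 gave calls for Bgn with all 3 compounds (adjusted p 0.0136 to 0.0493), and leaving out Vehicle replicate 5 gave calls with 25HC and GW3965. Those fits called many more of all genes: without Vehicle replicate 1, 2659 with 25HC, 622 with 25HC3S and 3247 with GW3965, against 5, 205 and 824 with all libraries.

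Prelp and Chad were not called in any comparison. Prelp, which binds heparan sulfate through its basic end and collagen through its repeats, had 279, 149, 273, 258 and 253 FPKM in Vehicle and 291 to 299 in 25HC3S, so that these groups did not overlap. Of all genes, 2.16% did not overlap between these groups. The difference of Prelp was 0.32 ± 0.12 (adjusted p = 0.210), and without the 4 libraries 0.15 ± 0.07 (adjusted p = 0.278). Prelp had 247 to 304 FPKM in 25HC and 265 to 302 in GW3965. Chad had 13.6 to 28.7 FPKM in Vehicle, 18.8 to 28.8 in 25HC, 10.6 to 24.1 in 25HC3S and 19.8 to 27.3 in GW3965, all overlapping. Over the 6 comparisons with all libraries, its largest difference was between GW3965 and 25HC3S (0.46 ± 0.21, adjusted p = 0.355, without the 4 libraries 0.31 ± 0.14, adjusted p = 0.144). Without the 4 libraries the largest was between 25HC3S and Vehicle, at -0.54 ± 0.17 (adjusted p = 0.103).

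**Figure D4:**
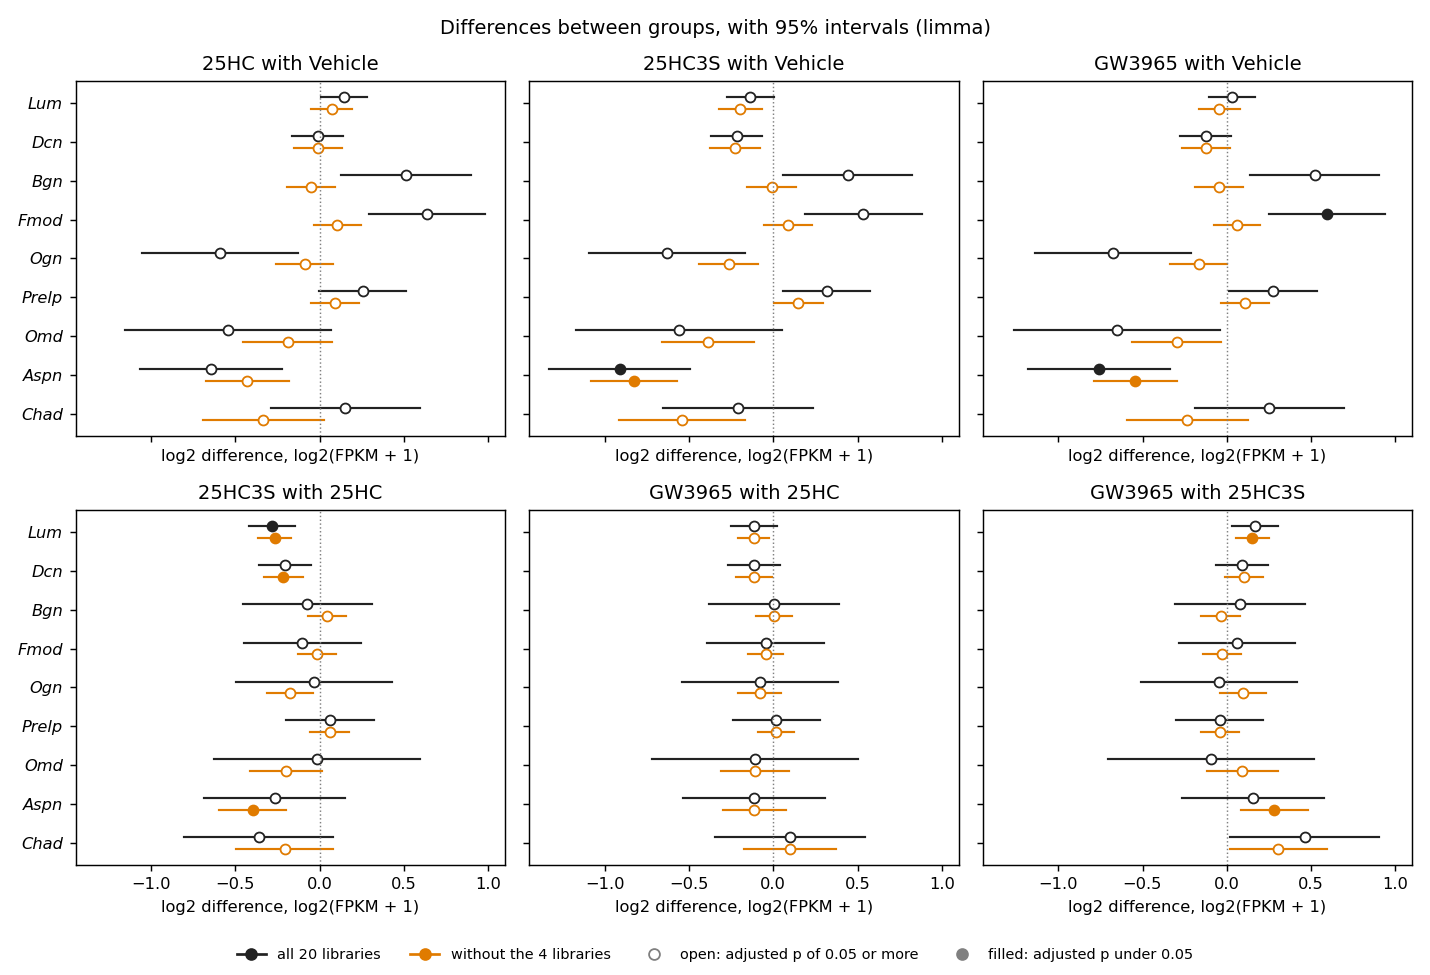
Log2 difference in log2(FPKM + 1) (horizontal axis) of each gene (vertical axis) in the 6 comparisons, with 95% intervals from limma. Black is the fit of all 20 libraries, orange the fit without the 4, and filled points have an adjusted p under 0.05. Aspn is filled in both colours for 25HC3S and GW3965 with Vehicle, and the Fmod point for GW3965 moves from 0.59 to 0.06.

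By comparison, the counts stood as follows beside those of all genes tested. For 25HC with Vehicle, 0 of 9 members were called by limma, and 0.0392% of all genes were. An unadjusted p under 0.05 was found for 5 of the 9 and for 30.3% of all genes. Leaving out the 4 libraries, 0 were called, against 0.0235% of all genes, and 1 of the 9 had an unadjusted p under 0.05, against 5.65% of all genes. For 25HC3S with Vehicle, 1 was called (Aspn, lower) with a background of 1.61%, and the same 1 without the 4 libraries with a background of 3.95%. For GW3965 with Vehicle, 2 were called (Aspn lower, Fmod higher) with a background of 6.46%, and 1 (Aspn) without the 4 with a background of 7.77%. The median difference of the members from Vehicle was 0.15 with 25HC, -0.21 with 25HC3S and 0.03 with GW3965, against 0.03, 0.02 and 0.02 over all genes tested. Over the other 16 libraries the member medians were -0.05, -0.23 and -0.12. These 3 comparisons share the Vehicle libraries.

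Between compounds, 1 member was called for 25HC3S with 25HC (Lum, lower; background 0.816%), and 3 without the 4 libraries (Lum, Dcn and Aspn, all lower), where 7.18% of all genes were called. For GW3965 with 25HC no member was called in either fit, against 1.74% and 13.1% of all genes, and 0 and 2 members had an unadjusted p under 0.05, against 7.5% and 24.8% of all genes. The widest 95% interval there, that of Omd, ran from -0.72 to 0.50, and the narrowest, that of Lum, from -0.25 to 0.02. For GW3965 with 25HC3S no member was called with all libraries, with a background of 4.63%, and 2 had an unadjusted p under 0.05, as did 12.6% of all genes. With the 4 left out there were 2 (Lum and Aspn, both higher with GW3965), with a background of 17.9%. Median member differences were -0.10, -0.08 and 0.08 in these 3 comparisons, and 0.00 or 0.01 over all genes. Without the 4 libraries the member medians were -0.20, -0.08 and 0.10. GW3965 was given at a lower dose than both sterols.

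The groups of 5 did not overlap for Prelp in 25HC3S against Vehicle, 1 of 9 members where 2.16% of all genes did not overlap, and for Lum in 25HC3S against 25HC, 1 of 9 where the share was 7.29%. No member was free of overlap in 25HC against Vehicle (2.33% of all genes), GW3965 against Vehicle (7.07%), GW3965 against 25HC (11.1%) or GW3965 against 25HC3S (12.2%).

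The genes that make, fill, cut or receive these proteoglycans were read from 7 lists, of which 78 genes in all could be tested. Their median difference from Vehicle was 0.04 with 25HC, 0.01 with 25HC3S and 0.02 with GW3965, against 0.03, 0.02 and 0.02 over all genes. With 25HC against Vehicle 0 of the 78 were called by limma, and 0.0392% of all genes were. An unadjusted p under 0.05 was found for 34 of them and for 30.3% of all genes. Without the 4 libraries 0 were called and 5 had that p, against 0.0235% and 5.65% of all genes. With 25HC3S against Vehicle 0 rose and 3 fell, where 1.61% of all genes were called. The 3 were Ecm2, Epyc and Adamts1 (-0.31 ± 0.07, adjusted p = 0.0369), a protease known to cut proteoglycans. Leaving out the 4 libraries, 1 rose and 6 fell there, where 3.95% of all genes were called. Among those that fell were Adamts1 (-0.27, adjusted p = 0.0245) and Col3a1 (-0.49, adjusted p = 1.33e-05), the chain of type III collagen. With GW3965 against Vehicle 2 rose and 5 fell, where 6.46% of all genes were called. B4galt7, which adds a galactose of the linkage between core protein and chain, rose by 0.59 ± 0.14 (adjusted p = 0.0156), and Vegfa, a growth factor held by matrix proteoglycans, by 0.96 ± 0.25 (adjusted p = 0.0272). Mmp3, a metalloprotease that cuts decorin, fell by 1.07 on the log2 scale (adjusted p = 0.00205), Dsel, an epimerase that turns chondroitin into dermatan sulfate, fell by 0.59 (adjusted p = 0.0385), and Col14a1, a collagen of fibril surfaces, fell by 0.49 (adjusted p = 0.0108). Ecm2 and Epyc were the other two. In that comparison 9 rose and 4 fell in the fit of the other 16 libraries, where 7.77% of all genes were called. Mmp3 was then at -1.22 (adjusted p = 0.00712), Col14a1 at -0.28 (adjusted p = 0.0179), B4galt7 at 0.30 (adjusted p = 0.00589) and Vegfa at 0.47 (adjusted p = 0.000123). Dsel was no longer called, at -0.16 (adjusted p = 0.0730).

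Between compounds, Adamts1 was lower with 25HC3S than with 25HC (-0.32 ± 0.07, adjusted p = 0.0474) and was the 1 list gene called of 78. Of all genes 0.816% were called there. Csgalnact1, the enzyme that starts a chondroitin chain, was higher with GW3965 than with 25HC (0.38 ± 0.08, adjusted p = 0.0149) and than with 25HC3S (0.44 ± 0.08, adjusted p = 0.00184). Mmp3 was lower with GW3965 than with 25HC (-0.78 ± 0.19, adjusted p = 0.0414) and than with 25HC3S (-0.89 ± 0.19, adjusted p = 0.00747). Mmp13, the main collagenase of cartilage, was -0.37 ± 0.08 (adjusted p = 0.00490) and Tlr2, a receptor that released biglycan binds, -0.37 ± 0.10 (adjusted p = 0.0418) in GW3965 against 25HC3S, and Adamts1 was 0.47 ± 0.07 (adjusted p = 0.00042). Each of these remained called without the 4 libraries. Adamts1 was then -0.31 (adjusted p = 0.000879) in 25HC3S against 25HC. Csgalnact1 was 0.38 (adjusted p = 2.08e-05) and Mmp3 -0.78 (adjusted p = 0.0136) in GW3965 against 25HC. In GW3965 against 25HC3S, Csgalnact1 was 0.49 (adjusted p = 1.69e-06), Mmp3 -0.92 (adjusted p = 0.00476), Mmp13 -0.38 (adjusted p = 0.00176), Tlr2 -0.28 (adjusted p = 0.0130) and Adamts1 0.46 (adjusted p = 5.23e-06). In this last comparison 2 rose and 3 fell of 78 with all libraries, and without the 4 libraries 18 rose and 10 fell. Of all genes, 4.63% were called with all libraries and 17.9% without the 4. Among the collagens that the family binds, none of 15 was called by limma between 25HC3S and 25HC (2 at an unadjusted p under 0.05, as were 7.12% of all genes). Without the 4 libraries 6 of 15 were lower with 25HC3S, where 7.18% of all genes were called in either direction, among them Col3a1 (-0.50, adjusted p = 1.96e-07) and Col1a1 (-0.21, adjusted p = 0.0344).

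Likeness of profile was measured over the 20 libraries as the root mean square difference of centred log2(FPKM + 1) values. The closest members were Bgn and Fmod, 0.104 apart, and Lum and Dcn, 0.106 apart. The root mean square deviation of the genes themselves was 0.348 for Bgn and 0.355 for Fmod, but only 0.127 for Lum and 0.129 for Dcn. The distance of Lum and Dcn was thus small partly because both varied little. Ogn was 0.179 from Aspn and 0.184 from Omd. The member nearest to Prelp was Dcn at 0.229, where the deviation of Prelp itself was 0.218. The nearest to Chad was Bgn at 0.311, beside 0.363 for Chad itself. Outside the family the genes most alike were Gja1 for Lum (0.083), Anxa4 for Dcn (0.077), Mapk3 for Bgn (0.090), Gsk3a for Fmod (0.091) and Mbnl1 for Ogn (0.093). They were Ergic1 for Prelp (0.069), Igsf10 for Omd (0.136), Pappa for Aspn (0.191) and Cd248 for Chad (0.169). All 20 points of a profile share the 4 libraries that stand apart.

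Genes that overlap the members on the opposite strand had lower FPKM than the members they overlap. Cenpp, whose gene spans Ogn, Omd and Aspn, had 0.078 to 1.30 FPKM, and Gm15851 at Prelp 0 to 0.828. Acsf2 at Chad had 3.96 to 7.12 FPKM, which is not small beside Chad at 10.6 to 28.8. Whether counting used strand is not given in the sources used here, so reads of these and of the members could not be told apart if it did not.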

How the data were processed

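RNA of mouse articular chondrocytes was sequenced in 20 libraries, 5 per group. Trizol was used for extraction and a rapid kit for the libraries, per the labels' protocols. CASAVA 1.8 and HISAT2 2.0.5 stand in the submitters' processing notes. Not given in the sources used here were the counting program, its strand setting and the build. The authors deposited FPKM per gene. Of the identifiers, 99.77% were in GENCODE M21, 98.33% of those at the same coordinates.

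FPKM times gene length gave whole multiples of 1 step per library (100% of values within 0.02), from which fragments were computed. Tests used limma 3.58.1 (R 4.3.3). Its input was log2(FPKM + 1), which understates the change of low genes. It kept 12752 genes (1 FPKM or more in 5 or more libraries) and fitted 1 mean per group over all 20 libraries, with a trended empirical Bayes spread. Tests were two-sided, with Benjamini-Hochberg adjustment within each of 6 comparisons. Errors are standard errors, or SD for group means. The main fit was tested on simulated data with noise drawn separately for each gene and library. That simulation held no libraries that stand apart, so it does not cover their effect on the fit. Removal of the GC trend was tested on simulated libraries with such a trend added. Whether replicate numbers pair the libraries is not given, and correlations between libraries of equal number did not settle it. Alternatives were pseudocount 0.1, no low filter, only the groups compared, rescaling by median ratios, array weights, a replicate block and leaving out each library. Leaving out the 4 libraries, order by transcript length and removal of each library's GC trend were added after seeing the data. The 9 members, the gene lists and the rule for named genes (all members, list genes that were called, the genes most alike in profile, overlapping neighbours) were chosen with earlier results of these data known. 7 of 9 members had a promoter entry (not Lum and Dcn).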

Additional observations from a re-analysis of the deposited data

Results flagged for a closer look

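Of 36 groups of 5 libraries (9 genes in 4 groups), 4 held a highest or lowest library whose gap to the nearest other was more than 0.71 of the whole range of the group, and chance gives about 1 in 20 such groups. 3 of the 4 were in libraries that stand apart in the number of genes with 1 fragment. Bgn in 25HC3S replicate 1 was the lowest of its group at 361 FPKM, with the others at 520 to 578. Omd in the same library was the highest at 86.2 FPKM, with the others at 39.4 to 50.8. Prelp in Vehicle replicate 2 was the lowest at 149 FPKM, with the others at 253 to 279. Lum in 25HC3S replicate 5, a library that does not stand apart, was the highest of its group at 245 FPKM, with the others at 219 to 226, and it was still below all 25HC libraries.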

How the results depend on the processing

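Both calls of Aspn, that of Fmod and that of Lum held with pseudocount 0.1. Those of Aspn also held with rescaling, with array weights, without the 4 libraries and with the GC trend removed, that of Fmod with rescaling and GC trend removal, and that of Lum with array weights, without the 4 libraries and with only its groups fitted. With all genes above 0 tested, with or without pseudocount 0.1, no member was called in any comparison with Vehicle or between the sterols (0, 0 and 0 where 1, 2 and 1 were called). For 25HC3S with Vehicle, GW3965 with Vehicle and 25HC3S with 25HC, 0.582%, 1.97% and 0.286% of all genes were then called. With pseudocount 0.1 as well, these shares were 0.447%, 1.85% and 0.286%. Fitting only the groups compared left 0 for 25HC3S and 0 for GW3965 with Vehicle, where 0.18% and 1.19% of all genes were called. Array weights gave 2 calls for 25HC3S with Vehicle, 1 for GW3965 with Vehicle, 3 for 25HC3S with 25HC and 2 for GW3965 with 25HC3S. They also called more of all genes there, 6.03%, 9.65%, 8.26% and 18.6%, against 1.61%, 6.46%, 0.816% and 4.63% in the main fit. Rescaling, and GC trend removal, each gave 0 for 25HC3S with 25HC, where they called 0.776% and 1.2% of all genes. Without the 4 libraries the counts were 1 for GW3965 with Vehicle, 3 for 25HC3S with 25HC and 2 for GW3965 with 25HC3S. Of all genes, 7.77%, 7.18% and 17.9% were called in these. Leaving out 1 library gave 0 to 5 calls for 25HC with Vehicle, 0 to 3 for 25HC3S with Vehicle, 0 to 4 for GW3965 with Vehicle and 0 to 0 for 25HC3S with 25HC. The counts of 5, 3 and 4 came without Vehicle replicate 1, where 2659, 622 and 3247 of all genes were called with 25HC, 25HC3S and GW3965, against 5, 205 and 824 with all libraries; without Vehicle replicate 5 they were 2085, 426 and 2998. The cause was not tested.

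With the replicate number as a block, 0 members were called for 25HC3S with Vehicle, GW3965 with Vehicle and 25HC3S with 25HC. Of all genes, 1.18%, 4.27% and 0.643% were called in these. The labels do not say whether equal numbers share a mouse or dish. Of 30 same-number pairs, 4 had a correlation over 0.1 (-0.702 to 0.270), and 4 of 20 libraries correlated best with their own number. These correlations include the 4 libraries that stand apart, so they cannot exclude a pairing.

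Signs turned only for differences that were called neither before nor after. With array weights these were Dcn 0.011 and Chad -0.28 (25HC with Vehicle), Lum -0.017 and Chad -0.22 (GW3965 with Vehicle), Bgn 0.023 (25HC3S with 25HC), Bgn -0.0064 (GW3965 with 25HC), Bgn -0.030, Fmod -0.014, Ogn 0.081 and Omd 0.076 (GW3965 with 25HC3S). Outside the 4 libraries they were Bgn -0.052 and Chad -0.33 (25HC with Vehicle), Bgn -0.0087 (25HC3S with Vehicle), Lum -0.045, Bgn -0.046 and Chad -0.24 (GW3965 with Vehicle), Bgn 0.044 (25HC3S with 25HC), Bgn -0.037, Fmod -0.028, Ogn 0.10 and Omd 0.092 (GW3965 with 25HC3S). With the GC trend removed they were Dcn 0.27 and Chad -0.087 (25HC with Vehicle), Dcn 0.14 (GW3965 with Vehicle), Ogn 0.054 and Omd 0.0076 (GW3965 with 25HC3S). Leaving out 1 library gave ranges across 0 of -0.072 to 0.029 for Dcn (25HC with Vehicle), -0.0077 to 0.073 for Lum (GW3965 with Vehicle), -0.13 to 0.044 for Bgn, -0.18 to 0.033 for Ogn and -0.20 to 0.078 for Omd (25HC3S with 25HC), -0.046 to 0.031 for Bgn and -0.030 to 0.047 for Prelp (GW3965 with 25HC), -0.037 to 0.13 for Bgn, -0.028 to 0.10 for Fmod, -0.11 to 0.10 for Ogn and -0.19 to 0.092 for Omd (GW3965 with 25HC3S).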
